A study of Mus musculus with 6 samples.

Results

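The Krüppel-like factors (KLFs) were examined as a set of 10 genes, *Klf2*, *Klf3*, *Klf4*, *Klf6*, *Klf7*, *Klf9*, *Klf10*, *Klf11*, *Klf12*, and *Klf13*, in RNA sequencing of mouse hematopoietic stem cells (HSCs) with and without interferon regulatory factor 1 (IRF1). Members were taken by gene symbol, and 10 of 10 were found among the 26264 genes of the table. The study asked which transcripts differ in HSCs that lack IRF1, a transcription factor of interferon and inflammatory responses. Libraries came from 3 wild-type (WT) mice of the C57Bl/6 strain and 3 *Irf1-/-* mice (B6.129S2-Irf1 tm1Mak/J), all untreated females of 8 weeks, with 1 library per mouse. HSCs were sorted from bone marrow as Lineage-Sca1+cKit+CD150+CD48- cells. The knockout is in the whole body, so the surroundings of the *Irf1-/-* HSCs lack IRF1 as well. Libraries are named by the numbers 2, 3, and 4 that their labels carry, and these numbers do not tie a WT mouse to an *Irf1-/-* mouse. Reads on genes ranged from 43267486 to 59658080 in WT (median 45332573) and from 43138521 to 57281017 in *Irf1-/-* (median 45129929). Values are normalized counts, that is, reads on a gene divided by 1 size factor per library.

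KLFs are zinc finger transcription factors that bind GC-rich and CACCC sequences, which they share with the related SP factors. Some members mainly activate transcription and are induced early by shear stress, growth factors, or cytokines, others recruit the corepressor CtBP, and others recruit SIN3A and its histone deacetylases. In blood cells, KLF2 is known for keeping lymphocytes quiescent and for their trafficking, KLF4 for monocyte development, and KLF1 for red cell development.

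The targeted gene was still read in the knockout. *Irf1* had 10122, 11119.6, and 12057.5 normalized counts in WT replicates 2, 3, and 4 and 9267, 9524, and 9287 in the *Irf1-/-* replicates. All 3 *Irf1-/-* libraries lay below all 3 WT libraries, but by little, the knockout mean being 84.3% of that in WT. On the log2 scale the difference was −0.24 with an SE of 0.088, which did not pass (adjusted *P* = 0.17, limma). Reads over the whole gene do not show whether the disrupted part was absent, so they do not check the labels. Of 9 HSC marker genes, all 9 passed the filter on low counts, a mean of at least 10. So did 17404 of all 26264 genes, all 8 granulocyte and monocyte markers, and all 7 endothelial and stromal markers. Passing this filter therefore does not check the labelled cell type. *Kit*, the gene of the list with the most reads, had between 77902 and 88715 normalized counts, and *Procr*, which encodes an HSC surface receptor, had between 3754 and 6456.

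Defining markers of red and T cells were at or near 0, whereas neutrophil and early response genes varied between libraries. The hemoglobin genes *Hba-a1*, *Hba-a2*, *Hbb-bs*, and *Hbb-bt* were at 0 in all 6 libraries, although near-identical copies such as *Hba-a1* and *Hba-a2* can lose reads that match both. *Cd3e* of T cells reached at most 7.89 normalized counts. WT replicate 4 stood apart in 3 neutrophil genes, with 2535 normalized counts of *Ngp*, 1246 of *S100a9*, and 1033 of *S100a8*, while no other library passed 130.8 for any of the 3. It did not stand apart in *Elane* (64.5) or *Mpo* (252.8), which had 67.5 and 355 normalized counts in *Irf1-/-* replicate 4, and *Ly6c2* was highest in WT replicate 3 (808, against 60.2 in WT replicate 4). Immediate early genes, which can respond to cell handling, also differed between libraries of the same genotype. *Fos* had 422, 379, and 57 normalized counts in WT replicates 2, 3, and 4 and 604, 133, and 782 in the *Irf1-/-* replicates. *Jun* had 7100.1, 7356, and 4033 in WT and 8720.2, 3679.5, and 8196 in *Irf1-/-*, so the same pair of libraries, WT replicate 4 and *Irf1-/-* replicate 3, was lowest for both genes.

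None of the 10 members was called different between the genotypes. With limma on log2(normalized count + 1), 0 of 10 passed both thresholds (adjusted *P* of less than 0.05, and a log2 change of more than 0.58 in either direction), where 1.91% of the 17404 genes tested did, and 0 of 10 passed the first threshold alone, where 3.22% did (1.73% higher and 1.49% lower in *Irf1-/-*). At an unadjusted *P* under 0.05 there were 2 members, *Klf3* and *Klf10*, against 16.5% of all genes. At an adjusted *P* under 0.05 alone, edgeR passed 0 members, against 3.29% of its 17362 genes, and DESeq2 passed 1, *Klf10*, against 9.79% of the 13094 genes to which it gave an adjusted *P*. *Klf10* stayed below the fold threshold there. Among 10 genes, a count of 0 is near these background shares and is no result about the family.

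Most members had a higher mean in *Irf1-/-* HSCs, by amounts that did not pass the test. The log2 fold change was above 0 in 8 of 10 members, against 8628 of all 17404 genes, and its median was 0.20, against −0.0028 over all genes. In 3 members, *Klf3*, *Klf9*, and *Klf10*, all *Irf1-/-* libraries lay above all WT libraries, which 10.6% of all genes did, and in 0 members did they lie below, which 9.27% of all genes did. Under quantile normalization, scaling by the library total, and centring on the library median, the median of the members was 0.19, 0.24, and 0.17, while that of all genes was −0.0019, 0.041, and −0.034. The same 3 members were higher in all *Irf1-/-* libraries under each, as were 11.8%, 13.3%, and 8.83% of all genes. Scaling by the library total and centring on the median each put *Klf13* below WT in all *Irf1-/-* libraries, as they did 9.3% and 12.7% of all genes. Without *Irf1-/-* replicate 2 the count of members above WT in all libraries was 5 of the 9 tested (15.4% of all genes), and without *Irf1-/-* replicate 4 it was 6 of 10 (13.9% of all genes), while without WT replicate 4 it was 3 (18.2% of all genes).

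Summed over the family, the *Irf1-/-* libraries were also higher. Relative to all reads on genes, the 10 members took 443, 465, and 484 CPM (counts scaled to the library total) in WT replicates 2, 3, and 4 and 607, 528, and 537 in the *Irf1-/-* replicates, so the genotypes did not overlap. *Klf10* supplied between 39.8% and 45.5% of these reads. The other 9 members took 267, 276, and 282 CPM in WT and 331, 318, and 294 in *Irf1-/-*, again without overlap on this scale. On the scale of the size factors, the other 9 summed to 13112, 14079, and 13135 normalized counts in WT and to 15234, 15742, and 13776 in *Irf1-/-*, and there the genotypes overlapped. In bulk RNA, fewer cells of a type and less RNA per cell cannot be told apart, which holds for every value given here.

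**Figure D1:**
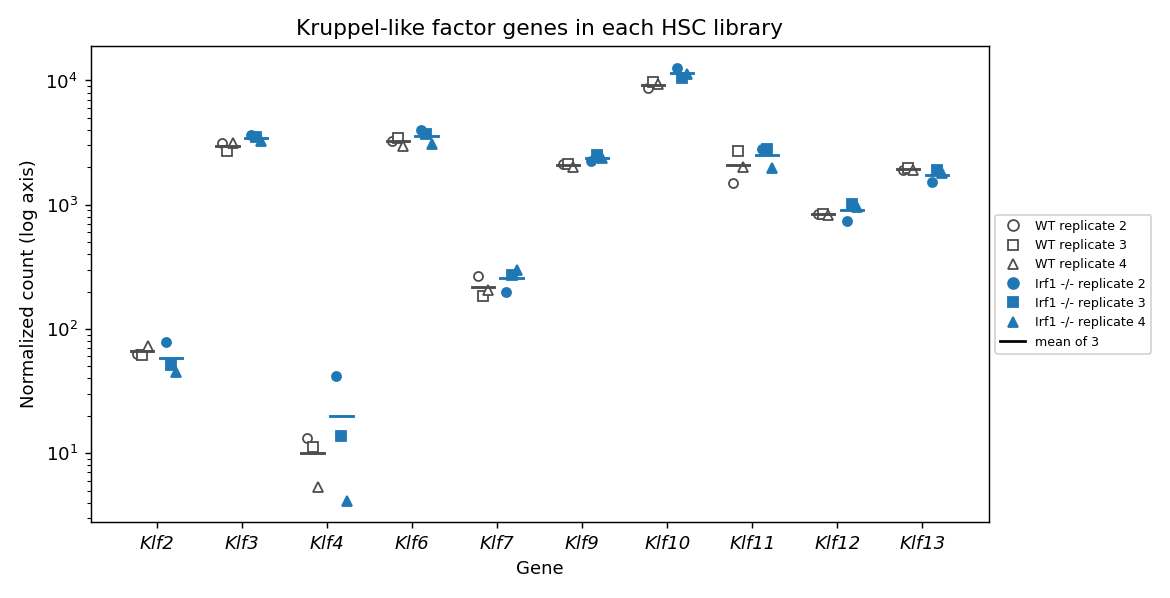
Normalized count (log axis) of the 10 KLF genes in each HSC library, with open symbols for the 3 WT and filled symbols for the 3 *Irf1-/-* libraries and a line at the mean of 3. The genotypes do not overlap for *Klf3*, *Klf9*, and *Klf10*, and *Klf4* ranges from 4.15 to 41.6.

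Per kilobase of exon, *Klf10* had the highest level of the family in WT HSCs. Exon lengths came from GENCODE vM1, not from the annotation used for counting, so levels between genes are approximate. *Klf10* had a mean of 2414 normalized counts per kilobase in WT (SD 136, n = 3), followed by *Klf3* with 1139.7 (SD 91.7), *Klf6* with 767 (SD 56.1), and *Klf9* with 641 (SD 18.0). The WT ranges of these 4 did not overlap. *Klf11* came next with 491 (SD 145), and its range, from 356 to 644, overlapped that of *Klf9*. *Klf13* had 292 and *Klf12* 146 normalized counts per kilobase. The lowest were *Klf2* with 35.7, *Klf7* with 26.8, and *Klf4* with 3.25, and the WT ranges of these 3 did not overlap. In *Irf1-/-* HSCs the order of the means was the same for the members above *Klf2*, while *Klf2* and *Klf7* were level at 31.5 each.

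Among the members that activate transcription, *Klf6* had the highest level per kilobase. *Klf6*, an early response gene and tumor suppressor in several tissues, had 3283, 3445, and 2979 normalized counts in WT replicates 2, 3, and 4 and 3978, 3711, and 3060.3 in the *Irf1-/-* replicates. *Irf1-/-* replicate 4 lay within the WT range and the other two above it. The log2 fold change was 0.14 (SE 0.11, adjusted *P* = 0.606, limma). *Klf7*, known from neuronal and lymphoid development, had 265.8, 184, and 204 normalized counts in WT and 199, 273, and 296 in *Irf1-/-*, with overlapping groups (log2 fold change 0.23, SE 0.24, adjusted *P* = 0.72).

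*Klf2* and *Klf4*, the members best known from lymphocytes, endothelium, and monocytes, had low levels, and *Klf4* had few reads. *Klf2* had 62.5, 62.0, and 73.2 normalized counts in WT and 78.9, 51.0, and 44.6 in *Irf1-/-*. The *Irf1-/-* libraries lay on both sides of the WT values, and the log2 fold change of −0.22 had a wide interval (95% interval −1.03 to 0.60, adjusted *P* = 0.858). *Klf4*, also a pluripotency factor, had 13.2, 11.3, and 5.38 normalized counts in WT and 41.6, 13.8, and 4.15 in *Irf1-/-*, from between 4 and 39 reads per library. The high value of *Irf1-/-* replicate 2 carried the difference of 0.52 (95% interval −1.31 to 2.34, adjusted *P* = 0.843). Without that library *Klf4* fell under the filter of a mean of 10 normalized counts, and over the other leave-one-out fits the log2 fold change ran from 0.17 without WT replicate 4 to 1.28 without *Irf1-/-* replicate 4. The *Irf1-/-* libraries had a coefficient of variation of 97.85% for *Klf4*, so the difference was within the spread between libraries.

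*Klf3* and *Klf12* encode repressors that bind CtBP. *Klf3*, which restrains erythroid and B cell programs and is known as a target of KLF1, had 3118, 2701, and 3114 normalized counts in WT replicates 2, 3, and 4 and 3611, 3475.5, and 3270.0 in the *Irf1-/-* replicates. All *Irf1-/-* libraries were above all WT libraries, the nearest pair being WT replicate 2 and *Irf1-/-* replicate 4. The log2 fold change was 0.22 (SE 0.097, 95% interval 0.0078 to 0.42, adjusted *P* = 0.284, limma). *Klf12* had 838.5, 843, and 833 normalized counts in WT and 739, 1016, and 957 in *Irf1-/-*. The values lay closer together in WT, but with 3 libraries per genotype a difference in spread was not tested. *Irf1-/-* replicate 2 lay below the WT values and the other two above them. The log2 fold change was 0.096 (SE 0.14, adjusted *P* = 0.824) and was 0.0049 without *Irf1-/-* replicate 3.

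The 4 members that recruit SIN3A are *Klf9*, *Klf10*, *Klf11*, and *Klf13*. *Klf10*, first described as a gene induced early by transforming growth factor β (TGF-β), had 8650.5, 9653.5, and 9387 normalized counts in WT replicates 2, 3, and 4 and 12696.5, 10408, and 11372 in the *Irf1-/-* replicates. The genotypes did not overlap, and *Irf1-/-* replicate 2 was highest. The mean in *Irf1-/-* HSCs was 124.5% of that in WT, and the log2 fold change was 0.31 (SE 0.094, 95% interval 0.11 to 0.51, adjusted *P* = 0.0922, limma). *Klf10* thus did not pass in limma, whereas DESeq2 estimated 0.32 with an adjusted *P* of 0.0234. Over 17 alternatives the log2 fold change of *Klf10* ranged from 0.24 to 0.38 and its adjusted *P* from 0.0234 to 0.362.

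*Klf9*, a gene induced by glucocorticoid and thyroid hormone, had 2133, 2119, and 2025 normalized counts in WT replicates 2, 3, and 4 and 2238, 2493, and 2397 in the *Irf1-/-* replicates. All *Irf1-/-* libraries again lay above all WT libraries, and the log2 fold change was 0.18 (SE 0.097, 95% interval −0.025 to 0.39, adjusted *P* = 0.391, limma). *Klf11*, a paralog of *Klf10* that is also induced by TGF-β, had 1503.5, 2722, and 2006 normalized counts in WT and 2822, 2812, and 1961 in *Irf1-/-*. Its WT libraries had a coefficient of variation of 29.5%, and the groups overlapped (log2 fold change 0.31, SE 0.19, adjusted *P* = 0.473). *Klf13*, a regulator of lymphocyte survival and cytokine genes, had 1894, 1992, and 1895.5 in WT and 1527, 1896, and 1785.5 in *Irf1-/-*. *Irf1-/-* replicate 3 lay at the lower end of the WT range and the other two below it (log2 fold change −0.16, SE 0.11, adjusted *P* = 0.553). A noncoding gene, *Gm27252*, overlaps *Klf13* in the RefSeq annotation and had between 32.3 and 121 normalized counts, and the strand setting of the counting is not given in the sources used here, so reads of the 2 genes may be mixed.

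*Klf1*, outside the set of 10, was the 1 KLF gene that passed. The table held 7 other KLF genes, of which 6 passed the filter and *Klf14* did not. *Klf1*, the master regulator of erythroid genes, had 1396, 1290.4, and 1182 normalized counts in WT replicates 2, 3, and 4 and 901, 569.5, and 924 in the *Irf1-/-* replicates. Each *Irf1-/-* library was below each WT library, and *Irf1-/-* replicate 3 was lowest. The mean fell to 61.9% of that in WT (log2 fold change −0.72, SE 0.17, 95% interval −1.09 to −0.35, adjusted *P* = 0.0361, limma). The call was lost without WT replicate 2 (adjusted *P* = 0.117), WT replicate 3 (0.109), *Irf1-/-* replicate 2 (0.0583), or *Irf1-/-* replicate 3 (0.07), and with scaling by the library total (0.0658). Over 17 alternatives the adjusted *P* ranged from 0.00187 to 0.316 and the log2 fold change from −0.84 to −0.50.

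Per kilobase, *Klf1* stood between *Klf3* and *Klf6* in WT HSCs, with a mean of 841 normalized counts, and at 520 in *Irf1-/-*. Its WT range, from 770.7 to 909.8, overlapped that of *Klf6*, from 706.4 to 817. The other 5 tested were *Klf16* with 245 normalized counts per kilobase in WT, *Klf5* with 139, *Klf8* with 132, *Klf15* with 44.6, and *Klf17* with 4.50. Their log2 fold changes ran from −0.61 for *Klf15* to 0.43 for *Klf17*, and their adjusted *P* values from 0.578 to 0.926 (limma).

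*Klf1* moved with markers of red cells and platelets. Of 8 erythroid markers, which include *Klf1*, 4 were at 0 in all libraries and 4 were tested, and 2 of these 4 fell, *Klf1* and *Car1*, where 1.49% of all genes fell. *Car1*, a carbonic anhydrase of early erythroid cells, had 1666, 1062, and 2638 normalized counts in WT and 836, 40.6, and 89.3 in *Irf1-/-* (log2 fold change −3.51, SE 0.74, adjusted *P* = 0.02), and it no longer passed without *Irf1-/-* replicate 3 (0.0603) or *Irf1-/-* replicate 4 (0.0681), in edgeR (0.0875), or in DESeq2 (0.198), within a range from 3.44e-05 to 0.344 over 17 alternatives. The list summed to 5370.3, 4890, and 5633 normalized counts in WT and to 3760, 2257, and 2820.5 in *Irf1-/-*, and *Epor*, with the most reads, had a mean of 1990.0. Of 5 megakaryocyte markers, against the same share, 2 fell, and 0 rose. *Pf4*, platelet factor 4, fell by 1.11 on the log2 scale (SE 0.18, adjusted *P* = 0.00334), and *Gp1bb*, a von Willebrand factor receptor subunit, fell by 0.90 (SE 0.14, adjusted *P* = 0.0032). Summed, the megakaryocyte list had 47319, 60305, and 45164 normalized counts in WT and 40363, 24765, and 35754 in *Irf1-/-*, and *Itga2b*, which like *Pf4* is also read in HSCs, had the most reads with a mean of 31199.7. The HSCs were sorted as Lineage-, and the lineage antibodies listed by the study include Ter119, for erythroid cells, and none for megakaryocytes. In its own gene set analysis, the paper reported lower expression of megakaryocyte and erythroid progenitor genes in *Irf1-/-* HSCs. The part of red cells and platelets in the *Klf1* result was not tested.

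**Figure D2:**
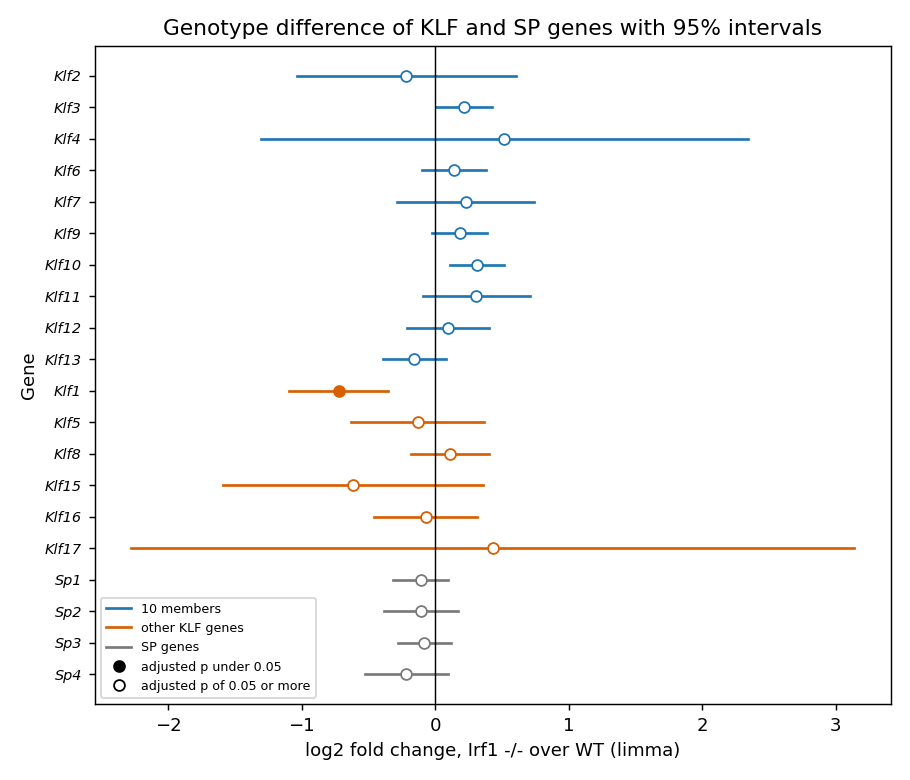
Log2 fold change of *Irf1-/-* over WT HSCs (limma, 3 libraries each) for the 10 members, the 6 other KLF genes tested, and the 4 SP genes tested, with 95% intervals as lines. Filled points have an adjusted *P* under 0.05, which was so for *Klf1* at −0.72.

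The SP factors, which bind the same GC-rich sequences, gave no call, which for so few genes is near the share of all genes that passed (3.22% in limma, 3.29% in edgeR, and 9.79% in DESeq2). Of 9 SP genes, 4 were tested, 3 (*Sp5*, *Sp6*, and *Sp9*) were at 0 in all libraries, and the other two, *Sp7* and *Sp8*, were under the filter. *Sp3* had the most reads, with a mean of 6853 normalized counts, and a log2 fold change of −0.080. Values for *Sp1* (−0.11), *Sp2* (−0.10), and *Sp4* (−0.22) were also below 0, and the adjusted *P* values of the 4 ran from 0.522 to 0.776 (limma). There were 0 at an unadjusted *P* under 0.05, against 16.5% of all genes, 0 in edgeR, and 0 in DESeq2.

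Partners of the KLF proteins showed no call in limma, where 3.22% of all genes passed. Of all genes, 16.5% had an unadjusted *P* under 0.05, 3.29% passed in edgeR, and 9.79% passed in DESeq2, and the counts of these short lists are near such shares. Of 7 corepressor genes (CtBP, SIN3, and histone deacetylases), 0 passed, with 0 at an unadjusted *P* under 0.05 and 0 in edgeR and in DESeq2, and the median log2 fold change was −0.067. *Ctbp1*, with the most reads, had a mean of 25172 normalized counts. Of 4 acetyltransferase coactivator genes, 0 passed by any of these 4 counts, and *Kat2a* had the most reads with a mean of 8924. Of 5 genes for the turnover of KLF proteins, 0 passed in limma and in edgeR, 1 had an unadjusted *P* under 0.05, and DESeq2 passed 1. *Vhl* had the most reads there, with a mean of 3239.5.

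Upstream regulators were examined by pathway, and their counts are to be read against all genes. Of these, 3.22% passed in limma, 16.5% had an unadjusted *P* under 0.05 there, 3.29% passed in edgeR, and 9.79% passed in DESeq2. With 3 to 11 genes per list, nothing particular to a list is drawn from these counts. The MEKK3-ERK5-MEF2 cascade, which induces *Klf2* and *Klf4* in endothelium, had 0 of 6 genes passing in limma, 4 at an unadjusted *P* under 0.05, 0 in edgeR, and 2 in DESeq2, and its gene with the most reads, *Mef2c*, had a mean of 14585 normalized counts. The FOXO factors, which act on *Klf2* in lymphocytes, had 0 of 3 passing, 2 at an unadjusted *P* under 0.05, 0 in edgeR, and 1 in DESeq2, with *Foxo1* at a mean of 2650.0. Of 6 glucocorticoid receptor and response genes, 0 passed, 3 had an unadjusted *P* under 0.05, and edgeR and DESeq2 passed 0 and 2. *Tsc22d3*, with the most reads, had a mean of 24912. Of the 11 circadian clock genes tested, 0 passed, 0 had an unadjusted *P* under 0.05, and 0 passed in edgeR or DESeq2, with *Tef* at a mean of 3903.

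The TGF-β list, which bears on *Klf10* and *Klf11*, had 1 of 7 genes higher and 0 lower, against 1.73% and 1.49% of all genes. *Smad7*, an inhibitor that the pathway itself induces, had 673, 554.5, and 598 normalized counts in WT replicates 2, 3, and 4 and 952, 795.0, and 1058 in the *Irf1-/-* replicates, without overlap. It rose by 0.61 on the log2 scale (SE 0.15, adjusted *P* = 0.0405, limma). The call was lost without WT replicate 2 (adjusted *P* = 0.0571), WT replicate 3 (0.153), WT replicate 4 (0.0508), *Irf1-/-* replicate 2 (0.137), or *Irf1-/-* replicate 4 (0.212), within a range from 0.00223 to 0.238 over 17 alternatives. *Tgfb1*, which encodes the ligand, was lower in all *Irf1-/-* libraries (log2 fold change −0.37, adjusted *P* = 0.0681), and *Tgfbr2*, which encodes a receptor, was higher in all of them (0.33, adjusted *P* = 0.0737), both without passing in limma. DESeq2 passed 3 of the 7 genes, against 9.79% of all genes. *Smad4*, with the most reads of the list, had a mean of 9502 normalized counts and a log2 fold change of 0.021.

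Of 8 genes known as targets of KLF2 or KLF4 in other cells, 1 rose and 1 fell, where 1.73% of all genes rose and 1.49% fell. *S1pr1*, the sphingosine-1-phosphate receptor that lets lymphocytes leave tissues and the gene with the most reads of the list, had 2725.5, 2115, and 2344 normalized counts in WT and 3677, 3525, and 4217 in *Irf1-/-*, a rise of 0.67 on the log2 scale (SE 0.11, adjusted *P* = 0.00476, limma). *Itgb7*, an integrin subunit for homing to the gut, had 1860, 2913, and 1738.5 in WT and 718.5, 654, and 600.0 in *Irf1-/-* and fell by 1.69 (SE 0.17, adjusted *P* = 7.1e-05). For both genes the genotypes were apart in all 6 libraries. *Klf2* had between 44.6 and 78.9 normalized counts, with overlapping groups, and its part in these changes was not tested. *Cdkn1a*, a cell cycle inhibitor, did not pass in limma (log2 fold change 0.78, adjusted *P* = 0.1).

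Several KLF genes respond early to stimulation, so the 16 immediate early and handling genes were set beside them. Of these, 2 rose and 1 fell, against 1.73% and 1.49% of all genes. *Egr1* had 2744, 3234, and 2778 normalized counts in WT and 6247, 5935, and 5471 in *Irf1-/-*, a rise of 1.01 on the log2 scale (SE 0.098, adjusted *P* = 3.9e-05, limma). *Ier3* rose by 0.50 (SE 0.11, adjusted *P* = 0.0285), below the fold threshold, and lost the call without WT replicate 2 (0.0722), WT replicate 3 (0.118), *Irf1-/-* replicate 2 (0.12), or *Irf1-/-* replicate 4 (0.154), within 0.00116 to 0.278 over 17 alternatives. *Btg2*, an antiproliferative gene, fell by 0.63 (SE 0.16, adjusted *P* = 0.046) and lost the call without WT replicate 2 (0.143), WT replicate 3 (0.181), *Irf1-/-* replicate 3 (0.121), or *Irf1-/-* replicate 4 (0.192), with quantile normalization (0.0521), and with scaling by the library total (0.0624), within 0.0035 to 0.33. Summed, the list had 36344, 38633, and 31573 normalized counts in WT and 42913, 37565, and 43429 in *Irf1-/-*, and *Ier2* had the most reads with a mean of 7942. *Klf10* and the list were both lowest in replicate 3 among the *Irf1-/-* libraries, but in WT *Klf10* was lowest in replicate 2 and the list in replicate 4. The part of handling in the KLF values was not tested.

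Markers of the sorted cells and of other cells also differed by genotype in part. Of 9 HSC markers, 2 rose and 1 fell, where 3.22% of all genes passed in either direction. *Fgd5* rose by 0.83 on the log2 scale (adjusted *P* = 9.1e-05) and *Procr* by 0.52 (adjusted *P* = 0.0112, limma). *Ly6a*, which encodes the gate antigen Sca1 and is an interferon-induced gene, fell by 0.43 (adjusted *P* = 0.0245) and lost the call without WT replicate 3 (0.0786), *Irf1-/-* replicate 2 (0.115), or *Irf1-/-* replicate 4 (0.112), within 0.00111 to 0.262 over 17 alternatives. The list summed to 194532, 199589, and 181871 normalized counts in WT and to 192806, 216493, and 196037 in *Irf1-/-*, and *Kit* had the most reads with a mean of 82378.5. Of 7 endothelial and stromal genes, against the same share, 1 rose, *Emcn*, by 0.58 (adjusted *P* = 0.0101), and *Tie1* had the most reads with a mean of 17597, both being genes that HSCs also express. That list summed to 18278, 18748, and 18115 normalized counts in WT and to 20817.5, 23583, and 22813 in *Irf1-/-*. *Cdh5*, which defines endothelium, had at most 29.1, and *Col1a1*, *Lepr*, and *Cxcl12* had at most 59.6, 62.0, and 116.2. *Kdr* was higher, between 519.3 and 1240.5, with a log2 fold change of 0.59 that did not pass (adjusted *P* = 0.132, limma). Whether such cells took part in the KLF values was not tested.

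No lymphoid or myeloid marker passed in limma, and with 3 to 8 genes per list this is near the 3.22% of all genes that passed (16.5% at an unadjusted *P* under 0.05, 3.29% in edgeR, and 9.79% in DESeq2). Of 5 B cell markers tested 0 passed, with 0 at an unadjusted *P* under 0.05 and 0 in edgeR and in DESeq2, and *Cd79b* had the most reads with a mean of 2799.8. Of 3 T and natural killer cell markers tested 0 passed, with 1 at an unadjusted *P* under 0.05, 0 in edgeR, and 1 in DESeq2, and *Nkg7* had the most reads with a mean of 2714. Of 8 granulocyte and monocyte markers 0 passed by any of these 4 counts, and *Lyz2* had the most reads with a mean of 26988. The granulocyte and monocyte list summed to 23751, 30644, and 31449 normalized counts in WT and to 26488, 32344, and 27535 in *Irf1-/-*. Without WT replicate 4, the library with the 3 neutrophil genes, limma called 0 of 10 KLF members and 569 of all 17202 genes. Among 10 genes, a count of 0 is near this background share. *Klf10* stood at 0.33 on the log2 scale in that fit (adjusted *P* = 0.0783, within 0.0234 to 0.362 over 17 alternatives).

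Genes with a pattern like *Klf10* and *Klf3* were sought among 12068 others with a mean of at least 100 normalized counts, by the root mean square difference of log2 values centred over the 6 libraries. The 5 nearest to *Klf10* were *Smg6* (0.049), *Zfp78* (0.049), *A530088E08Rik* (0.051), *Slc25a23* (0.052), and *Nupr1* (0.058). *Smg6*, which encodes an endonuclease of nonsense-mediated decay, had 4443, 4592, and 4511 normalized counts in WT and 5865, 5156, and 5619 in *Irf1-/-*, with the lowest *Irf1-/-* value in replicate 3, as for *Klf10*. The 5 nearest to *Klf3* were *4833438C02Rik* (0.026), *Bdh2* (0.035), *Elovl7* (0.037), *Plcg1* (0.038), and *Sall2* (0.039). None of these 10 genes passed in limma (adjusted *P* from 0.0887 to 0.582).

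Promoter windows from 250 bases before to 50 bases after the gene start (RefSeq, GRCm38.p6) were found for 9 of the 10 members. *Klf10* was not in the table. On both strands, the motif of GAAA, any 2 bases, and GAAA again, a pair of half-sites that IRF proteins bind, was in 0 of the 9 windows and in 3.44% of 32851 windows of all genes. The shorter AANNGAAA, which every match of the former contains, was in 1 of 9, that of *Klf9*, and in 23.9% of all. The GC box GGGCGG was in 7 of 9 windows, with 21 matches, and in 35.7% of all, and CACCC was in 6 of 9, with 12 matches, and in 57.5% of all. The GC content of the member windows ran from 45.7% (*Klf12*) to 77.7% (*Klf11*), and only that of *Klf12* was below the median of all windows, 52.7%. The shares were not adjusted for base content, so they are not read as a trait of the family. A match is a description of the letters, and binding was not measured.

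The windows of the members whose genotypes did not overlap, as far as the table held them, and of *Klf1*, which fell, are shown with GGGCGG and CACCC, or their complements CCGCCC and GGGTG, in capitals. That of *Klf3* (chr5:64803271-64803570, plus strand) has 6 GC boxes and 5 CACCC matches, with 1 overlap between the motifs. That of *Klf9* (chr19:23140976-23141275, plus strand) has 0 and 1, and that of *Klf1* (chr8:84901732-84902031, plus strand) has 0 and 2.
Klf3: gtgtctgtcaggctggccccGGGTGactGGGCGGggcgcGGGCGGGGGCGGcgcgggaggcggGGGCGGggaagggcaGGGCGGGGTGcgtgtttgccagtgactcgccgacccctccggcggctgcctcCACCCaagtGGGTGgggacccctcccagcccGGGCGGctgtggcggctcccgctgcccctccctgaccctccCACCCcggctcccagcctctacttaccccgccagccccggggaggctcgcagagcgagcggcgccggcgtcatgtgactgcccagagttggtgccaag
Klf9: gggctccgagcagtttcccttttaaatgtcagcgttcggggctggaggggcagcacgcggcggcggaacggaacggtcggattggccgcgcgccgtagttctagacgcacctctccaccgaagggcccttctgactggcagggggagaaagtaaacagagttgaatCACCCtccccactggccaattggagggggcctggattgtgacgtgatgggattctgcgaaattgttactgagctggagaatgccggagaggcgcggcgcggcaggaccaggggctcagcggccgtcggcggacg
Klf1: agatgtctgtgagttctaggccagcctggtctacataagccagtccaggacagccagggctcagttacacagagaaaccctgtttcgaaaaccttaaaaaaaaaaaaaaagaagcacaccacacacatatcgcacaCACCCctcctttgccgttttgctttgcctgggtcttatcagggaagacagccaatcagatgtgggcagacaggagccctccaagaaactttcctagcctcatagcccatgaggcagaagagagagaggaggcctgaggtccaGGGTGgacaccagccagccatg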

How the data were processed

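Bulk RNA-seq of sorted HSCs covered 3 WT and 3 *Irf1-/-* mice. The authors made cDNA with SMART-Seq v4 and libraries with Nextera XT, used Trim Galore for trimming, HISAT2 for alignment (mm39, per the submitters' processing notes), and Htseq-count for counting. Versions, annotation, and strand setting are not given in the sources used here. The deposited values are a signal, namely counts per gene that the authors scaled by DESeq2 size factors. All values (100%) were whole multiples of 1 read within 0.1 reads, so reads were recovered. Libraries of a genotype differed by more than counting noise (chi-square per gene between 14.97 and 27.64).

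The main test was limma 3.58.1 (R 4.3.3, eBayes with a trend for intensity). Its input was log2(normalized count + 1), a scale that understates changes of low genes, over all genes with a mean of at least 10, with Benjamini-Hochberg adjustment over all of them. The tests were tried on simulated data. edgeR 4.0.16 (quasi-likelihood) and DESeq2 1.42.0 were run on the recovered reads, where they called 323 and 504 genes, against 333 in limma. Other alternatives were 2 other pseudocounts, 2 other filters, no trend, 3 other scalings, a replicate block, and each library left out.

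The members and lists were chosen with earlier results of these data known. Named genes were all members, other KLF and SP genes, and from each list those with an adjusted *P* under 0.05 and the one with the most reads. *Cdkn1a*, *Tgfb1*, *Tgfbr2*, *Fos*, *Jun*, *Gm27252*, and single markers of other cells were added after their values were seen. *Bmal1* (listed beside its older name *Arntl*) and *Trac* were not analysed here, and values of some other listed genes are not reported here. Reads carry no molecular identifiers, so they are not independent molecules.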

Additional observations from a re-analysis of the deposited data

How the results depend on the processing

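The log2 fold changes of the 10 members were recomputed under 17 alternatives, which gave 167 values with an adjusted *P*. None changed sign, 166 stayed on their side of an adjusted *P* of 0.05, and 1 crossed it, *Klf10* in DESeq2 (log2 fold change 0.32, adjusted *P* = 0.0234), so that the number of members with an adjusted *P* under 0.05 was 1 there and 0 in every other fit. The number of members called with the fold threshold was 0 under every alternative. The other filters, the fit without a trend, and the replicate block leave a log2 fold change as it was. Only the *P* values could differ there, not the signs. *Klf4* had no value under a mean filter of 50 or without *Irf1-/-* replicate 2, and no adjusted *P* in DESeq2. The median log2 fold change of the members lay between 0.16 and 0.24. Members higher in all *Irf1-/-* libraries numbered 3 in the fits with 6 libraries, apart from the replicate block, for which they were not counted, and 3 to 6 when 1 library was left out, and they included *Klf3*, *Klf9*, and *Klf10* each time. The share of all genes higher in this way was 7.67% to 13.3% with 6 libraries and 13.9% to 18.2% with 1 left out. Members lower in all *Irf1-/-* libraries numbered 1, *Klf13*, with scaling by the library total, median centring, and edgeR, and 0 to 1 when 1 library was left out, while the share of all genes was 7.11% to 12.7% and 12.0% to 19.9%. The cause was not tested.

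Of the 14 listed genes with an adjusted *P* under 0.05, all 14 missed it in limma without an intensity trend (0.0511 to 0.344), a fit that called 40 genes in all, against 333. Without WT replicate 4 the count was 569, and without *Irf1-/-* replicate 4 and WT replicate 3 it was 204 and 207. DESeq2 called 504.

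With the replicate number as a replicate block, 0 members passed, *Klf10* had an adjusted *P* of 0.0575, and 415 genes were called. Deviations of libraries with the same number correlated at −0.094, 0.246, and 0.147 across genes for numbers 2, 3, and 4. *Irf1-/-* replicate 2 correlated best with WT replicate 4 (0.251), so the numbers were not taken as pairs. With 3 mice per genotype, differences as small as those of most members are within the spread between mice, and *Klf4* rests on 4 to 39 reads per library.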
